A study of Homo sapiens with 12 samples.

Results

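The comparison described here set cells labelled TYK-nu, an established ovarian cancer line, after 24 h in 15 µM cisplatin against the same cells after 24 h with DMSO as the control, with 3 libraries in each group. All genes with at least 10 exon counts in 3 or more of these 6 libraries were compared, which were 10164 of the 17508 genes listed. For 8759 of them the counts over introns reached the same minimum. Among the genes nearest to this limit, 99 reached 10 counts in exactly 3 libraries and 78 in exactly 2. The whole series held 12 libraries of poly(A)-selected RNA, the other 6 being 3 each of the same treatments for 72 h. The study imaged where cisplatin lay inside nuclei, and the sequencing asked whether the drug altered RNA splicing. Cells were treated in triplicate, and nothing names separate passages, so p-values measure the spread between these libraries, which may be technical. Per library, the exon and intron counts together came to between 18526830 and 36911333 with cisplatin and between 19940352 and 30792139 with DMSO.

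Cisplatin is a platinum drug that binds neighbouring purines in DNA and ties them into crosslinks within a strand or between the strands. Crosslinks stall replication forks and block RNA polymerase II on the transcribed strand. Cells remove lesions within a strand by nucleotide excision repair, and they unhook crosslinks between strands through the Fanconi anemia pathway and homologous recombination. The kinases ATR and ATM signal the damage, functional p53 induces arrest and death genes, and platinum in the cytosol reacts with thiols such as glutathione and metallothioneins. Many of these responses are known to include changes in messenger RNA levels, and the gene lists below follow these roles.

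The genes that define the labelled cell type were in part without counts. Of 9 listed markers of the serous ovarian lineage 7 were in the table, and 4 of these, FOLR1, SOX17, EMX2 and WFDC2, were at 0 exon counts in all 6 libraries. PAX8, the usual lineage transcription factor, had at most 1 count in any library, and WT1, another lineage factor, was at 2.20 to 4.17 CPM (CPM are exon counts scaled to a common library size, not to gene length). MECOM, a transcription factor gene often amplified in this cancer, was at 112 to 127 CPM. The epithelial adhesion genes CDH1 and CLDN3 were at 0, and EPCAM, a further adhesion gene, had 2 to 11 counts, while CLDN7, another claudin, was at 20.2 to 24.6 CPM and the keratin genes KRT8 and KRT18 were at 10.96 to 14.2 CPM and 164 to 181 CPM. An exon count of 0 does not by itself show absence in these files. RPL41, a ribosomal protein gene, had 0 exon counts in all 6 libraries and 265 to 497 intron counts. The intron counts of FOLR1, SOX17, EMX2 and WFDC2 were also 0 in all 6 libraries, and those of PAX8 and CDH1 were 0 to 1. CLDN3 had no intron entry. In contrast, 4 of the 5 listed markers of endothelial cells had high counts in all 6 libraries. PECAM1, an adhesion receptor of endothelial and blood cells, was at 2381 to 2484 CPM, and CDH5, the cadherin of endothelial junctions, was at 938 to 1044 CPM. KDR, a VEGF receptor, was at 252 to 275 CPM and TEK, the angiopoietin receptor, at 145 to 154 CPM. VWF, the fifth marker, had 20, 41 and 17 exon counts with cisplatin and 13, 19 and 0 with DMSO, which scaled to library size did not overlap, and differed by 1.28 (0.30 to 2.26) without being called. The summed level of the 5 endothelial markers was 3741 to 3875 CPM with cisplatin and 3835 to 3889 CPM with DMSO, ranges that overlap. Of the immune markers PTPRC, CD3D and NKG7 were at 0 exon and 0 intron counts in all 6 libraries. CD3E had 6 to 10 exon counts and LYZ 2 to 15, and CD68, which encodes a lysosomal protein, was at 321 to 378 CPM. Of the 8 mesenchymal markers CDH2 and SNAI2 were at 0 exon and 0 intron counts. SPARC, ZEB2 and TWIST1 were low at 0.652 to 1.83 CPM, 1.86 to 3.65 CPM and 6.61 to 8.70 CPM. FN1, ZEB1 and VIM were at 34.1 to 40.04 CPM, 176 to 191 CPM and 6739.7 to 7408 CPM. ZEB2 differed by -0.42 (-0.81 to -0.034) and was not called. The cells are called by their label in what follows, and the source of these levels was not tested.

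No gene had a called difference in exon counts between cisplatin and DMSO at 24 h. In the edgeR fit, 0 of 10164 genes (0.0%) passed a Benjamini-Hochberg adjusted p of 0.05. The smallest adjusted p was 0.999, and 236 genes had an unadjusted p under 0.05, of which 127 (1.25% of all tested) were higher with cisplatin and 109 (1.07%) lower. That count of 236 was 190 to 404 when 1 library was left out, the most coming without DMSO replicate 1 (404) and without cisplatin replicate 2 (375), and 123 in the 6 libraries at 24 h with a replicate block. DESeq2 also called 0 genes, with 225 at an unadjusted p under 0.05. All 3 cisplatin libraries lay above all 3 DMSO libraries for 324 genes (3.19%) and below them for 322 (3.17%). The median size of the difference was 0.049 on the log2 scale, and 99% of genes differed by less than 0.61. For scale, the same fit called 6675 genes (65.7%) between 72 and 24 h in DMSO, where the median size of the difference was 0.32. The noise between libraries was low, with a common biological coefficient of variation of 5.89% for exon counts. In bulk RNA, a lower level in every cell and a lower share of cells with the transcript cannot be told apart.

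**Figure D1:**
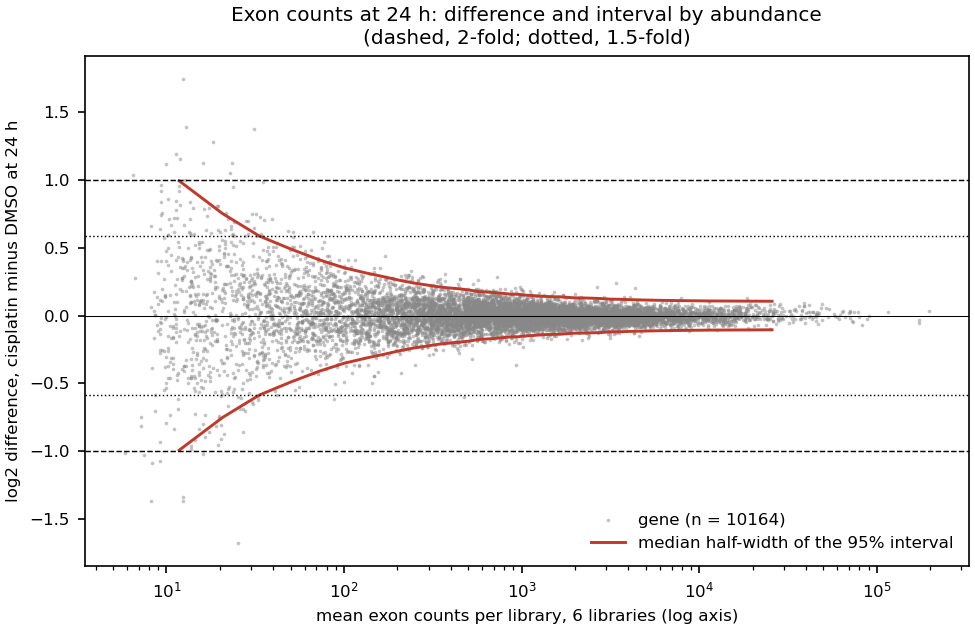
Each point is 1 of the 10164 genes, with its mean exon counts per library on a log axis and its log2 difference, cisplatin minus DMSO at 24 h, and lines mark the fold limits and the median interval width at each abundance. The spread narrows with abundance, and all 438 genes that were not bounded within 2-fold had a mean under 100 counts.

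How large a response could have gone unseen was read from the 95% interval of each gene's log2 difference, on which 1 is 2-fold and 0.58 is 1.5-fold. The interval lay within 2-fold in both directions for 9726 genes (95.7%), within 1.5-fold for 9054 (89.1%) and within 1.2-fold for 6494 (63.9%). No interval, 0 of 10164, lay wholly beyond 2-fold, 2 lay wholly beyond 1.5-fold and 8 beyond 1.2-fold, and 20 estimates were over 2-fold. The 2 genes beyond 1.5-fold had few counts and were not called, and both belong to groups of near-identical copies, so their counts are uncertain. HLA-L, an HLA pseudogene, had 12, 29 and 16 exon counts with cisplatin and 4, 13 and 0 with DMSO. Scaled to library size its groups did not overlap, and it differed by 1.74 (0.62 to 2.86). POLR2J3, a copy of a polymerase subunit gene, had 13, 8 and 14 exon counts with cisplatin and 35, 75 and 7 with DMSO, which overlap, and differed by -1.67 (-2.70 to -0.65). The median half-width was 0.16, which is 1.12-fold. With intervals widened to cover all genes together, 8434 genes (83.0%) were bounded within 2-fold and 6137 (60.4%) within 1.5-fold.

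The bounds followed abundance. Of the 576 genes with a mean under 30 counts, 32.6% were bounded within 2-fold, and their median half-width was 0.84. From 100 to 300 counts, 96.3% of 1299 genes were bounded within 1.5-fold. From 3000 counts upward, 99.2% of 1979 genes were bounded within 1.2-fold, with a median half-width of 0.11.

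**Figure D2:**
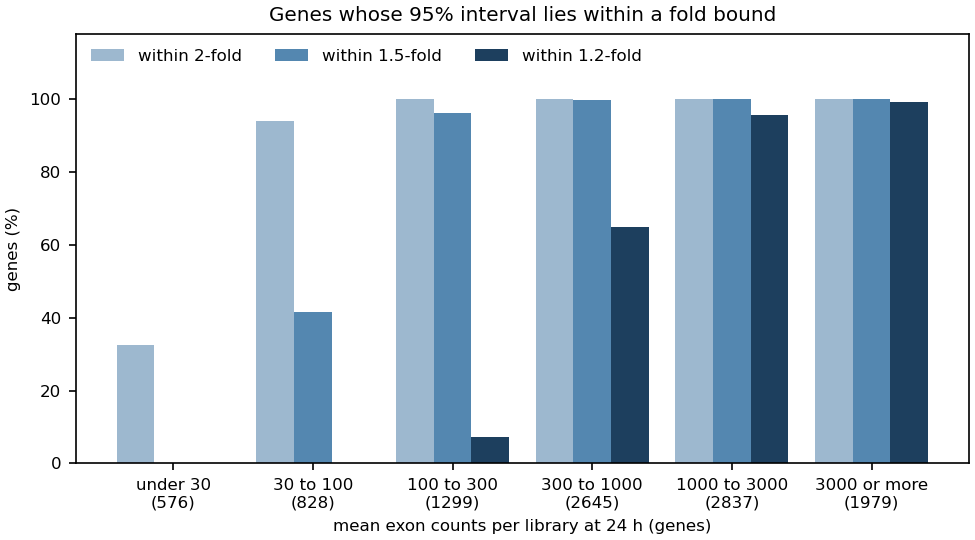
Bars give the percentage of genes in each class of mean exon counts per library whose 95% interval for cisplatin against DMSO at 24 h lies within 2-fold, 1.5-fold or 1.2-fold. The share within 1.2-fold goes from 0 for genes under 100 counts to 99.2% for genes with 3000 counts or more.

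The functional lists, 32 in all, and the marker lists held 681 distinct tested genes, of which 0 were called by edgeR or by DESeq2. An unadjusted p under 0.05 in edgeR was reached by 9 of them (1.32%), beside 2.32% of all genes tested. Of the 681 genes, 673 (98.8%) were bounded within 2-fold and 657 (96.5%) within 1.5-fold, beside 95.7% and 89.1% of all genes tested. Over the 30 functional lists with at least 5 tested members, the median log2 difference of the members ran from -0.043 to 0.045, and the median over all genes was -0.0019. A library's level for a list was taken as the median over the members of its log2 CPM relative to the mean of the 6 libraries. The levels of the cisplatin and DMSO libraries overlapped in all 30 lists. When 1 library at a time was left out, the list medians ran from -0.089 to 0.11, and for 21 of the 30 lists the sign of the median changed in at least 1 case. Where a list median is followed by a range with the word leave-one-out, it is the range of its values over these 6 cases.

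**Figure D3:**
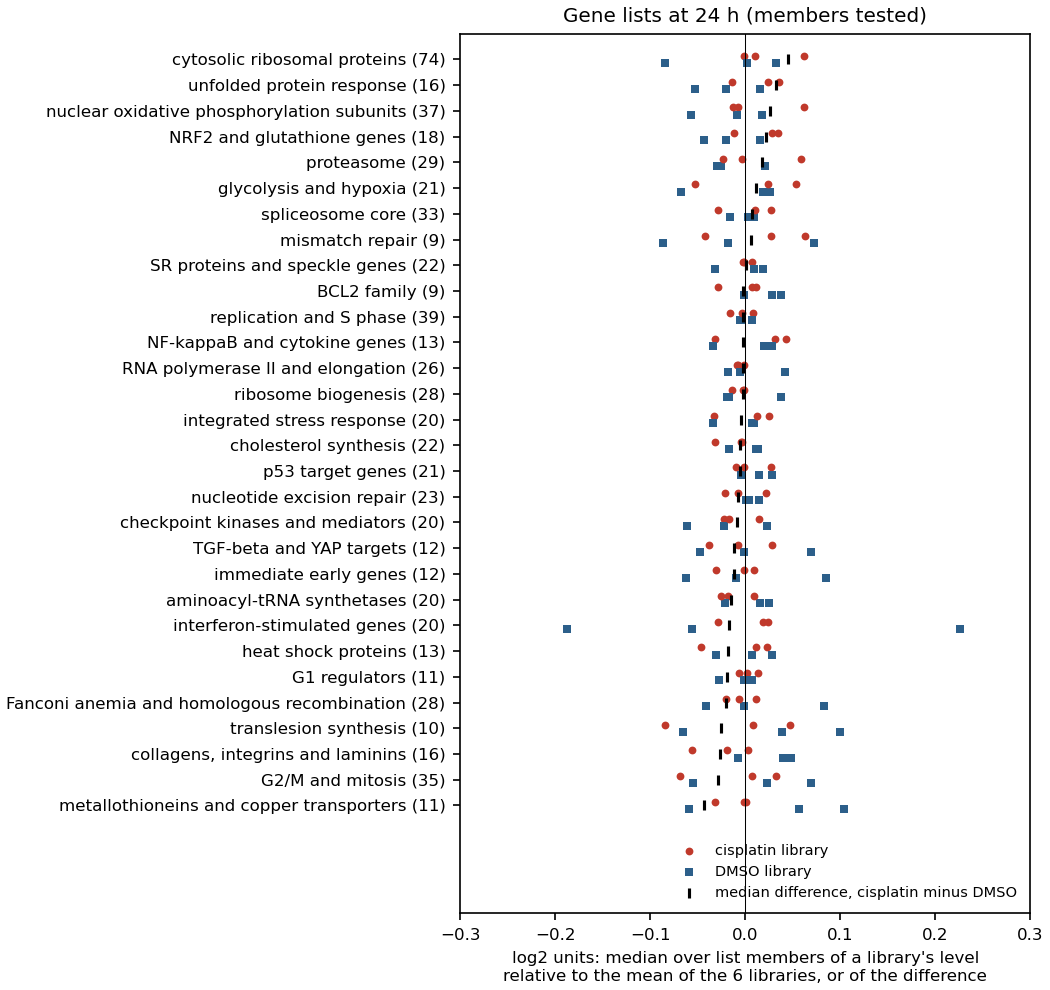
Red circles and blue squares give the level of the 3 cisplatin and 3 DMSO libraries at 24 h in each of 30 lists (log2 units, median over members relative to the mean of the 6 libraries), and the black bar gives the median log2 difference of the members. The groups overlap in all 30 lists, and the DMSO libraries spread widest for interferon-stimulated genes, from -0.19 to 0.23.

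Genes that p53 induces were level between the groups. Of 30 listed targets 21 were tested, 10 being higher with cisplatin and 11 lower, with 0 called by either tool, 0 at an unadjusted p under 0.05 in edgeR and a median difference of -0.0055 (leave-one-out -0.015 to 0.0089). The levels of the list were -0.0096, 0.027 and -0.0018 in the cisplatin libraries and -0.0046, 0.028 and 0.014 in the DMSO libraries, which overlap. XPC, the lesion sensor of excision repair and itself a p53 target, was at 62.7, 69.8 and 69.7 CPM with cisplatin and 67.9, 69.2 and 63.7 CPM with DMSO. Its log2 difference was 0.0085 (-0.12 to 0.13), where the range in parentheses is the 95% interval, here and below. DDB2, which helps recognise lesions, differed by -0.018 (-0.18 to 0.14), and TNFRSF10B, a death receptor, by -0.11 (-0.27 to 0.045). The widest bounds in the list belonged to genes with few counts, SESN1, a stress sensor, at -0.0055 (-0.51 to 0.50) and ZMAT3, an RNA-binding protein, at 0.14 (-0.38 to 0.66). In all, 20 of the 21 targets were bounded within 1.5-fold. CDKN1A, the p53 target that stops the cell cycle, was not analysed here. MDM2, BBC3, PMAIP1 and GADD45A had no exon entry and are described with the intron counts.

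The BCL2 family decides between survival and mitochondrial cell death, and its 9 tested members had a median difference of -0.0019 (leave-one-out -0.018 to 0.029). BCL2L1, which encodes the survival protein BCL-XL, was at 475, 484 and 465 CPM with cisplatin and 494, 492 and 497 CPM with DMSO. All 3 cisplatin libraries lay below the DMSO libraries, and the difference was -0.058 (-0.15 to 0.031). BCL2, the founding survival gene, was at 11.5, 10.7 and 10.7 CPM with cisplatin and 11.4, 12.7 and 14.9 CPM with DMSO, which overlap, with a difference of -0.24 (-0.48 to 0.0067). The killer genes BAX and BAK1 also overlapped between the groups, with differences of 0.14 (-0.18 to 0.45) and 0.13 (-0.023 to 0.28).

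Nearly all DNA repair genes were held within narrow bounds. All 23 nucleotide excision repair genes were tested and bounded within 1.5-fold, with 10 higher, 13 lower and a median of -0.0081 (leave-one-out -0.010 to 0.025). ERCC1, a subunit of the nuclease that cuts beside the lesion, was at 97.2, 96.3 and 95.4 CPM with cisplatin and 98.7, 102 and 90.5 CPM with DMSO, which overlap, and differed by -0.015 (-0.13 to 0.10). GTF2H2, a subunit of the helicase complex TFIIH, had the smallest p of this list. It was at 16.2, 15.2 and 17.9 CPM with cisplatin and 19.6, 17.8 and 21.4 CPM with DMSO, and 1 cisplatin library reached into the DMSO range. The difference was -0.26 (-0.46 to -0.055) with an adjusted p of 0.999 by edgeR, and the gene has near-identical copies, so its counts are uncertain.

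Of the Fanconi anemia and homologous recombination genes, 28 of 30 were tested and all 28 were bounded within 1.5-fold, with a median of -0.021 (leave-one-out -0.054 to 0.016). FANCD2, the protein that is ubiquitinated at crosslinks, was at 46.1, 53.2 and 49.5 CPM with cisplatin and 47.4, 49.7 and 54.0 CPM with DMSO. The groups overlapped, and the difference was -0.016 (-0.16 to 0.13). BRCA2, a mediator of homologous recombination, differed by -0.020 (-0.20 to 0.16), and BRCA1, which acts in the same pathway and had few counts, by -0.027 (-0.42 to 0.36). All 9 mismatch repair genes were bounded within 1.5-fold, with a median of 0.0064 (leave-one-out -0.036 to 0.054).

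Translesion synthesis copies past lesions that remain, and 8 of its 10 tested genes were lower, with a median of -0.026. Both values depended on single libraries, with 5 of 10 lower without cisplatin replicate 2 or DMSO replicate 3 (medians of -0.012 and -0.020) and 9 of 10 lower without DMSO replicate 1 (a median of -0.080). POLH, the polymerase that can bypass platinum crosslinks, differed by -0.020 (-0.19 to 0.15). In this list 9 of 10 were bounded within 1.5-fold, the exception being UBE2A, a ubiquitin-conjugating enzyme with few counts, at -0.32 (-0.86 to 0.23). PRIMPOL, which primes synthesis beyond a block, was at 30.01, 26.3 and 28.3 CPM with cisplatin and 30.6, 30.4 and 30.9 CPM with DMSO. The PRIMPOL groups did not overlap, and the difference was -0.12 (-0.27 to 0.025). The 20 checkpoint genes had a median of -0.0092 (leave-one-out -0.033 to 0.0087). ATR, the kinase of stalled forks, differed by -0.063 (-0.19 to 0.065) and CHEK1, its effector kinase, by -0.10 (-0.23 to 0.028), while ATM, with few exon counts, was bounded less tightly at -0.28 (-0.90 to 0.35).

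Replication and cell cycle genes lay close to no difference at 24 h. Of 41 replication and S phase genes 39 were tested, with 18 higher and 21 lower, all 39 bounded within 1.5-fold and a median of -0.0021 (leave-one-out -0.013 to 0.010). RRM2, the regulated subunit of ribonucleotide reductase, was at 776, 719 and 778 CPM with cisplatin and 709, 742 and 792 CPM with DMSO, which overlap. TK1, which salvages thymidine, was at 165, 181 and 169.7 CPM with cisplatin and 186, 173 and 164 CPM with DMSO, with a difference of -0.019 (-0.13 to 0.094). The S phase cyclin genes CCNE1 and CCNE2 differed by 0.12 (-0.025 to 0.27) and 0.079 (-0.12 to 0.28). The lowest and highest bounds of any member were -0.25 for ORC1, which marks replication origins, and 0.31 for POLE2, a polymerase subunit.

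For G2/M and mitosis genes, 9 of 35 tested members were higher and 26 lower, 0 were called by either tool, and the median was -0.029. The levels of this list were 0.032, -0.069 and 0.0069 in the cisplatin libraries and -0.054, 0.022 and 0.069 in the DMSO libraries, so each group spanned more than the difference between them. CCNB1, the mitotic cyclin, was at 304, 281 and 303 CPM with cisplatin and 286, 304 and 306 CPM with DMSO. PLK1, a mitotic kinase, differed by -0.065 (-0.17 to 0.040), and PTTG1, the inhibitor of separase, by 0.13 (0.00023 to 0.26). The number of higher members was 16 of 35 without DMSO replicate 3, where the median was -0.0041, 14 with -0.013 without cisplatin replicate 2, and 6 with -0.053 without DMSO replicate 1. The 11 tested G1 regulators had a median of -0.020 (leave-one-out -0.033 to 0.032), and CCND1, the G1 cyclin, differed by -0.070 (-0.17 to 0.030).

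Stress genes were mostly level as well, with 0 called by either tool. HMOX1, which encodes heme oxygenase and is a classical target of the oxidative stress factor NRF2, lies on chromosome 22 from 35380361 to 35394214 (GRCh38) and was at 186, 188 and 192 CPM with cisplatin and 177, 164 and 148 CPM with DMSO. All 3 cisplatin libraries were above the DMSO libraries. The log2 difference was 0.21 (0.079 to 0.33), with an unadjusted p of 0.0026 and an adjusted p of 0.999 by edgeR. The NRF2 and glutathione list as a whole had 11 of 18 members higher and a median of 0.022, which was 0.0066 without DMSO replicate 2 and 0.0070 without cisplatin replicate 3, each with 9 higher, and 0.034 with 13 higher without cisplatin replicate 2. GCLM, a subunit of the enzyme that limits glutathione synthesis, differed by -0.021 (-0.14 to 0.10) and NQO1, a quinone reductase, by 0.058 (-0.060 to 0.18). At 72 h the HMOX1 difference was 0.093, and the edgeR test of the difference between the times gave an unadjusted p of 0.20.

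Metallothioneins bind metals including platinum, and the copper transporters SLC31A1 and ATP7A have been linked to platinum uptake and export. MT1X, on chromosome 16 from 56682470 to 56684196, was at 39.3, 38.3 and 35.5 CPM with cisplatin and 47.2, 42.6 and 43.4 CPM with DMSO, and all 3 cisplatin libraries were below the DMSO libraries. Its difference was -0.23 (-0.42 to -0.050), with an adjusted p of 0.999 by edgeR. At 72 h it was 0.11, and the edgeR test of the change between the times gave an unadjusted p of 0.011 and an adjusted p of 0.444. MT2A, another member of the family, was at 400.4, 415 and 392.3 CPM with cisplatin and 459, 409 and 389 CPM with DMSO, which overlap. Metallothionein genes resemble each other closely, so reads can be shared or lost among them. SLC31A1 differed by 0.025 (-0.12 to 0.16) and ATP7A by 0.071 (-0.11 to 0.25), and the list of 11 tested genes had a median of -0.043, which was 0.019 without DMSO replicate 1 and -0.070 without cisplatin replicate 2.

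In the integrated stress response, through which ATF4 induces amino acid genes, 20 of 23 genes were tested, with 9 higher, 11 lower and a median of -0.0042 (leave-one-out -0.013 to 0.018). ASNS, asparagine synthetase, was at 345, 332 and 356 CPM with cisplatin and 312, 347 and 349.8 CPM with DMSO, which overlap. TRIB3, an inhibitor of the kinase AKT, differed by -0.047 (-0.17 to 0.072) and ATF4 itself by 0.056 (-0.047 to 0.16).

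The unfolded protein response expands the folding capacity of the endoplasmic reticulum. Of its 16 tested genes 13 were higher, 0 were called by either tool, and the median was 0.032. CALR, the chaperone calreticulin, was at 1583, 1652 and 1621 CPM with cisplatin and 1537, 1531 and 1485 CPM with DMSO. The groups did not overlap, and the difference was 0.093 (0.0011 to 0.19), with an adjusted p of 0.999 by edgeR. CRELD2, a secreted factor of this response, was at 40.8, 41.3 and 36.5 CPM with cisplatin and 38.1, 34.2 and 33.3 CPM with DMSO, which overlap, with a difference of 0.17 (0.013 to 0.33). HSPA5, the chaperone BiP, differed by 0.043 (-0.048 to 0.13). Leaving out 1 library at a time gave 10 to 14 higher members and medians of 0.019 to 0.066. Of the 13 heat shock genes 10 were lower, the median was -0.018 and ran from -0.036 to 0.012 (without cisplatin replicate 2) when 1 library was left out, and HSPA1A, an inducible chaperone with a near-identical copy, differed by 0.072 (-0.13 to 0.27).

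**Figure D4:**
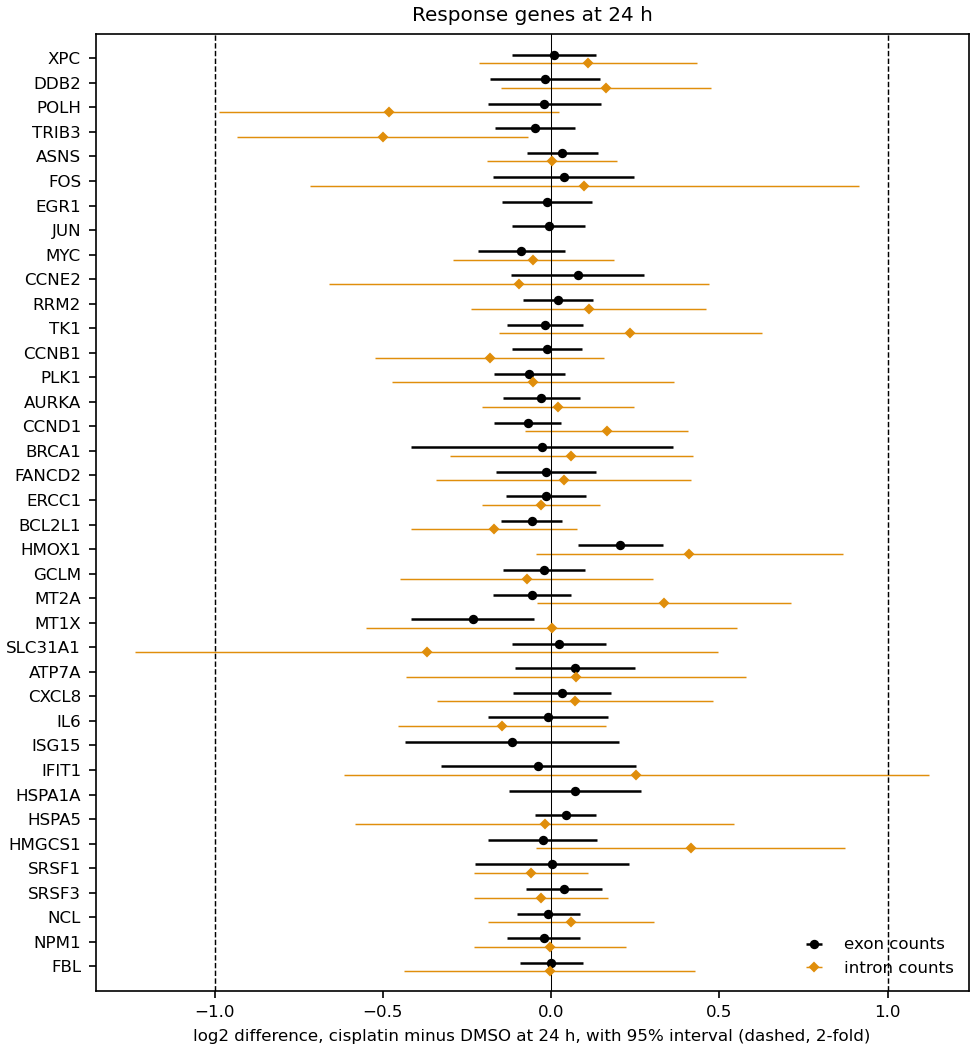
Black circles with bars give the log2 difference of exon counts, cisplatin minus DMSO at 24 h, with its 95% interval for a fixed set of response genes, and orange diamonds give the same for intron counts where these reached the minimum. All exon intervals shown lie within 2-fold, and among them those of HMOX1 and MT1X do not reach 0.

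Immediate early genes, the first to respond to growth factors and stress kinases, were level after 24 h, and all 12 tested members were bounded within 1.2-fold. JUN, an AP-1 subunit, was at 729.6, 783 and 750.2 CPM with cisplatin and 819, 746 and 708 CPM with DMSO, which overlap. FOS, its partner, differed by 0.037 (-0.17 to 0.25), EGR1, an early zinc finger factor, by -0.013 (-0.15 to 0.12), and MYC, the growth regulator, by -0.089 (-0.22 to 0.040). For NF-kappaB and cytokine genes 13 members were tested and the median was -0.0021 (leave-one-out -0.031 to 0.025). The cytokine genes CXCL8 and IL6 differed by 0.032 (-0.11 to 0.18) and -0.0094 (-0.19 to 0.17). IL1B, an inflammatory cytokine gene, had 5, 9 and 7 exon counts with cisplatin and 22, 21 and 10 with DMSO. All 3 cisplatin libraries were below the DMSO libraries, and the difference was -1.34 (-2.22 to -0.46), with an adjusted p of 0.999 by edgeR.

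Interferon-stimulated genes, which encode antiviral proteins, differed more among the DMSO libraries than between the groups. The levels of the 20 tested members were 0.024, -0.029 and 0.019 in the cisplatin libraries and 0.23, -0.057 and -0.19 in the DMSO libraries. ISG15, a ubiquitin-like modifier, was at 72.0, 73.2 and 73.0 CPM with cisplatin and 108, 71.9 and 55.6 CPM with DMSO, so that the DMSO libraries spanned the cisplatin libraries. The median difference of the list was -0.017, with 9 members higher. Without DMSO replicate 1 it was 0.11 with 18 higher, and without DMSO replicate 3 it was -0.089 with 3 higher. All 20 members were bounded within 2-fold.

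Genes for ribosomal proteins had the highest list median, and its size depended on single libraries. Of 76 genes for cytosolic ribosomal proteins 74 were tested, 69 were higher with cisplatin, 0 were called by either tool and 0 had an unadjusted p under 0.05 in edgeR. The median was 0.045, and 70 of the 74 were bounded within 1.2-fold. The levels were -0.0012, 0.010 and 0.062 in the cisplatin libraries and 0.0013, 0.033 and -0.084 in the DMSO libraries, and the lowest library was DMSO replicate 3. Without that library 45 of 74 members were higher and the median was 0.012, without cisplatin replicate 3 it was 0.025 with 63 higher, and without DMSO replicate 2 it was 0.074 with 70 higher. RPL39, a small protein of the large subunit, was at 789, 756 and 826 CPM with cisplatin and 692, 784 and 692 CPM with DMSO, which overlap. The nuclear subunits of oxidative phosphorylation had 28 of 37 members higher with a median of 0.026. Without DMSO replicate 3 they had 19 of 37 higher and a median of 0.0016, without cisplatin replicate 3 23 and 0.011, and without cisplatin replicate 2 31 and 0.048. Ribosomal protein genes have many processed pseudogenes that can share their reads.

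Genes of the nucleolus and most genes of the splicing machinery were tightly bounded. NCL, which encodes nucleolin, was at 2742, 2665 and 2710.0 CPM with cisplatin and 2641, 2681 and 2840.0 CPM with DMSO, which overlap, and differed by -0.0082 (-0.10 to 0.085). FBL, which methylates ribosomal RNA, was at 363, 376 and 359 CPM with cisplatin and 374, 356 and 369.6 CPM with DMSO, and all 28 tested genes of ribosome biogenesis were bounded within 1.2-fold. Of 33 core spliceosome genes, 32 were bounded within 1.2-fold, and the median was 0.0073 (leave-one-out -0.0096 to 0.016). The exception in that list was U2AF1, which helps recognise the 3′ splice site and has a near-identical copy in this genome build. It was at 0.783, 0.526 and 0.465 CPM with cisplatin and 0.536, 1.74 and 0.591 CPM with DMSO. Its difference was -0.75 (-1.77 to 0.26), which is not bounded within 2-fold. The 22 SR protein and speckle genes had a median of 0.00033 (leave-one-out -0.0071 to 0.00085). Of these, 21 were bounded within 1.5-fold, and CLK4, a kinase of SR proteins with few counts, was bounded less tightly at -0.063 (-0.81 to 0.68). SRSF1 and SRSF3, both splicing regulators, differed by 0.0033 (-0.23 to 0.23) and 0.038 (-0.076 to 0.15).

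Of the transcription machinery, 26 genes were tested and all 26 were bounded within 1.5-fold, with a median of -0.0022 (leave-one-out -0.022 to -0.0012). CDK9, the kinase that releases paused RNA polymerase II, was at 114, 121 and 109.7 CPM with cisplatin and 125, 125 and 122 CPM with DMSO. All 3 cisplatin libraries were below the DMSO libraries, and the difference was -0.11 (-0.23 to 0.0061). The remaining lists of at least 5 tested members had 0 called members by either tool. Their medians were 0.018 (leave-one-out 0.00025 to 0.045) for 29 proteasome genes, -0.0053 (leave-one-out -0.022 to 0.0082) for 22 cholesterol synthesis genes and 0.011 (leave-one-out -0.014 to 0.038) for 21 genes of glycolysis and hypoxia. They were -0.016 (leave-one-out -0.029 to 0.0017) for 20 aminoacyl-tRNA synthetases, -0.011 (leave-one-out -0.044 to 0.013) for 12 TGF-beta and YAP targets and -0.026 (leave-one-out -0.046 to -0.015) for 16 collagen, integrin and laminin genes. Replication-dependent histones, whose transcripts mostly lack poly(A) tails, had 3 tested members of 12, and the messages of mitochondrial DNA were not analysed here.

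Intron counts, which the study used as a measure of unspliced RNA, set wider bounds. They made up 6.40 to 7.15% of the counts with cisplatin and 6.26 to 6.67% with DMSO, ranges that overlap. By edgeR 0 of 8759 genes (0.0%) passed an adjusted p of 0.05, with 458 at an unadjusted p under 0.05 (442 to 623 when 1 library was left out, and 296 in the 6 libraries at 24 h with a replicate block), and DESeq2 called 0 with 356. The median half-width was 0.39, and 7628 genes (87.1%) were bounded within 2-fold. Over the 30 lists the median intron difference ran from -0.13 for translesion synthesis to 0.11 for immediate early genes. When 1 library was left out the former ran from -0.16 to -0.025, the last without cisplatin replicate 2, and the latter from 0.088 to 0.17. HMOX1 differed by 0.41 (-0.046 to 0.87) in intron counts and TRIB3 by -0.50 (-0.93 to -0.068). The exon/intron ratio was called for 0 of 8759 genes (0.0%) by edgeR, with 554 at an unadjusted p under 0.05 (448 to 833 when 1 library was left out, the most without cisplatin replicate 3) and a median log2 difference of -0.084. A binomial regression of the exon and intron counts called 1157 genes, 1082 with a lower and 75 with a higher ratio. It takes no account of the spread between libraries. Neither ratio fit used TMM scaling, so both keep each library's share of intron counts, which was highest in cisplatin replicate 2 (7.15%). With exon and intron counts scaled separately, their median log2 differences were -0.0019 and -0.00062. How the ratio median and this split move when 1 library is left out is not given here.

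Several stress genes could be followed in intron counts alone. Of 423 genes without an exon entry, 211 had enough intron counts. They were tested in an edgeR fit with filterByExpr as the count minimum, over 9618 genes, and 0 of the 211 were called. An unadjusted p under 0.05 in edgeR was reached by 13 (6.16%), beside 5.23% of the 8759 genes above. Intervals within 2-fold were found for 182 (86.3%), beside 87.1% of the 8759. DESeq2 was not run on these genes. MDM2, which encodes the ligase that degrades p53, had 20, 17 and 13 intron counts with cisplatin and 25, 18 and 9 with DMSO. These overlap, and the log2 difference was -0.11 (-0.90 to 0.68). GADD45A, a damage-induced arrest gene, differed by 0.15 (-0.22 to 0.53), BBC3, which encodes the killer protein PUMA, by 0.18 (-0.33 to 0.70), and PMAIP1, which encodes NOXA, by -0.023 (-0.66 to 0.61). DDIT3, which encodes CHOP, a death factor of the integrated stress response, was at 32.1, 43.4 and 42.7 intron CPM with cisplatin and 31.2, 24.6 and 19.1 with DMSO. All 3 cisplatin libraries were above the DMSO libraries, and the difference was 0.65 (0.26 to 1.03), with an unadjusted p of 0.0015 and an adjusted p of 0.741 by edgeR. CHAC1, a target of CHOP and ATF4, had 0 exon counts in all 6 libraries and 285, 488 and 255 intron counts with cisplatin and 397, 401 and 209 with DMSO, which overlap. SRSF1 also had fewer exon counts, 270 to 553, than intron counts, 1911 to 3442, and which RNA the intron counts of such genes, DDIT3 and MDM2 included, come from was not tested. MCL1, a survival gene with a short-lived product, differed by 0.041 (-0.26 to 0.34) and SRSF2, which encodes the speckle protein SC35, by 0.015 (-0.18 to 0.21).

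Gene length was examined because lesions block elongating polymerase and a longer gene offers more template. In 5 classes of equal number by the length of the gene, the median log2 difference of exon counts went from 0.016 in the shortest class, up to 10.8 kb, to -0.022 in the longest, from 91.2 kb. That of intron counts went from 0.029 to -0.044. Single libraries varied more than this. In exon counts the level of DMSO replicate 3 went from -0.062 in the shortest class to 0.050 in the longest, and the difference between these classes, -0.038 over all libraries, was 0.0089 without it. In intron counts that of cisplatin replicate 2 went from 0.085 to -0.11, and the difference between the classes, -0.073 over all libraries, was -0.0017 without it. Leaving out cisplatin replicate 1 gave -0.15 for intron counts, so single libraries moved this difference both ways with no change of sign.

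**Figure D5:**
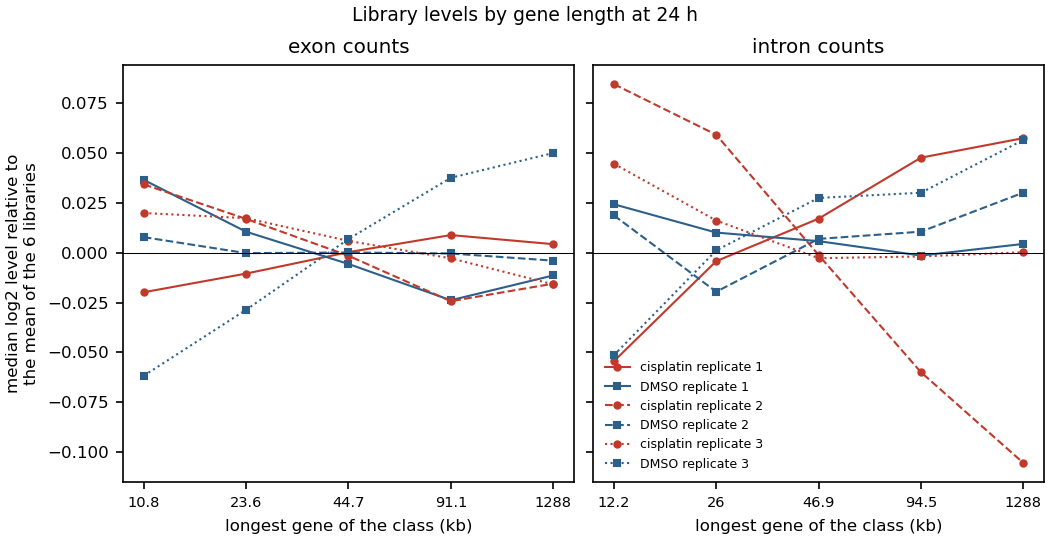
Lines give the median log2 level of each library at 24 h, relative to the mean of the 6 libraries, in 5 classes of gene length for exon counts (left) and intron counts (right). DMSO replicate 3 goes from -0.062 to 0.050 with length in exon counts and cisplatin replicate 2 from 0.085 to -0.11 in intron counts, while the other libraries of both groups are mixed.

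The effect of cisplatin at 24 h was set against that at 72 h, where 3 of 10164 genes were called by edgeR. An unadjusted p under 0.05 in edgeR was reached by 1305 genes at 72 h and by 236 at 24 h. The median size of the difference was 0.049 at 24 h and 0.077 at 72 h. The change of the effect between the times was called for 0 of 10164 genes (0.0%) by edgeR, with 961 (9.45%) at an unadjusted p under 0.05 and a smallest adjusted p of 0.44. DESeq2 was not run on this term. Such an unadjusted p was reached by 17 of the 39 replication and S phase genes, whose medians were -0.0021 at 24 h and 0.14 at 72 h, and by 28 of the 74 ribosomal protein genes, whose medians were 0.045 and -0.12. FANCD2 differed by -0.016 at 24 h and 0.35 at 72 h, with an unadjusted p of 0.0017 and an adjusted p of 0.444 for the change in edgeR.

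Genes with large differences and no overlap, among those with a mean of at least 50 exon counts, were not called. GPR89A, one of a near-identical pair of genes for a Golgi pH regulator, lies on chromosome 1 from 145607988 to 145670650 and was at 16.1, 13.5 and 16.3 CPM with cisplatin and 26.3, 24.9 and 17.2 CPM with DMSO. The difference was -0.60 (-0.89 to -0.31), with an unadjusted p of 0.00029 and an adjusted p of 0.999 by edgeR, and the counts are uncertain because reads can be shared with the copy. Without DMSO replicate 3 its adjusted p was 0.038, and at 72 h its difference was -0.97. NPIPA1, a member of a family of recent duplicates with the same uncertainty, differed by -0.61 (-1.04 to -0.19) at 24 h and by 0.34 at 72 h. B3GNT9, a glycosyltransferase gene, was at 3.09, 2.87 and 4.13 CPM with cisplatin and 2.72, 2.02 and 1.61 CPM with DMSO, and differed by 0.61 (0.18 to 1.05).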

How the data were processed

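Poly(A)-selected RNA of cells labelled TYK-nu was sequenced in 12 libraries, 3 per group, and the 6 libraries at 24 h were compared here. Per the submitters' processing notes and the study's methods, reads were checked with FastQC 0.11.8, trimmed with Trim Galore 0.6.0, aligned to GRCh38 with HISAT2 2.1.0 and counted over exons and introns with HTSeq. The kit keeps strand, and the strand setting of the counting is not given in the sources used here. The deposited values are raw counts per gene, exon and intron side by side. The authors' counting left 423 genes without an exon entry. Gene lengths and names came from GENCODE release 44 and a table of gene names.

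Exon counts and intron counts were each fitted with edgeR 4.0.16 (R 4.3.3) over all 12 libraries, with TMM scaling. Their ratio was fitted over the same libraries without TMM scaling, with the total of a library's exon and intron counts as library size. All these fits used a quasi-likelihood test and Benjamini-Hochberg adjustment at 0.05. The genes had at least 10 counts in 3 or more of the 6 libraries. Those without an exon entry took their values from an intron fit with filterByExpr as the count minimum. Intervals at 95% used the quasi-likelihood standard error and a t quantile, and cover 1 gene at a time. Library levels used a pseudocount of 0.5. The genes named are a fixed set of response genes, the member with the smallest p of each list, any called gene and the largest differences without overlap among genes with a mean of at least 50 counts, with others added as examples of a list. A few genes that these rules name are not reported here. Markers were fixed apart from 12 genes of endothelial and blood cells, added after the values of the listed markers were seen. The members, lists and tests were chosen with earlier results of these data known. DESeq2 1.42.0, limma 3.58.1 and the other alternatives are given in the closing section, and the scripts were tested on simulated data. Libraries sharing a number did not deviate from their group means together (r = -0.112, -0.036 and -0.027 in exon counts), so the numbers were not treated as pairs. No pair of libraries of the same group at 24 h agreed within sampling noise.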

Additional observations from a re-analysis of the deposited data

How the results depend on the processing

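The counts of called genes and the bounds kept their values or stayed within 1.5 times under most alternatives. For exon counts 1 gene was called, GPR89A, in the 6 libraries at 24 h with a replicate block, a fit chosen after seeing the data, and leaving out 1 library gave 0 to 1, the 1 being GPR89A without DMSO replicate 3. With a replicate block in the fit of all 12 libraries, 0 exon, 0 intron and 0 ratio genes were called (214, 431 and 505 at an unadjusted p under 0.05), and no library correlated best with its own number. For intron counts edgeR's filterByExpr gave 2 calls, SLCO5A1 and HFM1, and a minimum of 1 count in 1 library gave 3, CHD5, DSTN and HFM1. The binomial regression called 1157 ratios, a test that takes no spread between libraries. The count of genes bounded within 2-fold was 9548 to 9726 over the other fits, and 8434 with intervals for all genes together. The longest minus the shortest length class ran from -0.069 to 0.0089 in exon counts when 1 library was left out, the sign change coming without DMSO replicate 3, and from -0.15 to -0.0017 in intron counts. The median of ribosomal protein genes ran from 0.012 to 0.074. Of 390 alternative exon list medians 31 moved by more than 1 SD of the library levels, and of 390 intron list medians 45 did. Genes with under 100 counts are limited by depth, and intron counts also had a wider common spread between libraries, 10.2% against 5.89%.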

Other observations

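After the values of the listed markers were seen, 12 further genes of endothelial and blood cells were looked up, and all 12 are given here. TIE1, an endothelial receptor kinase, was at 1640 to 1911 CPM, and EGFL7, a secreted factor of vessels, at 696 to 844 CPM. ESAM, an adhesion molecule of endothelial junctions, was at 433 to 489 CPM, ROBO4, a guidance receptor of vessels, at 158 to 177 CPM, and ENG, a TGF-beta co-receptor, at 64.9 to 80.4 CPM. Of the transcription factors shared by endothelial and blood cells, FLI1 was at 255 to 271 CPM, GATA2 at 62.3 to 79.2 CPM, LYL1 at 48.3 to 59.4 CPM, ERG at 4.45 to 5.67 CPM and TAL1 at 0.35 to 0.76 CPM. EMCN, an endothelial surface protein, had 0 to 1 counts, and CLDN5, the claudin of endothelial junctions, had no exon entry. The summed level of the 11 genes with exon counts was 3484 to 3895 CPM with cisplatin and 3443 to 3831 CPM with DMSO, ranges that overlap.

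The intron genes called only under another count minimum included values far from the rest in 1 library. HFM1, a meiotic helicase gene, had 211, 257 and 379 intron counts with cisplatin and 4791, 191 and 227 with DMSO. SLCO5A1, a transporter gene of the organic anion family, had 43, 56 and 67 with cisplatin and 1061, 42 and 55 with DMSO. The high values of both genes are those of DMSO replicate 1, and both genes had at most 5 exon counts in any of the 6 libraries. DSTN, an actin-depolymerizing factor gene, had 50, 71 and 36 intron counts with cisplatin and 82, 120 and 86 with DMSO, a log2 difference of -0.99 with an adjusted p of 0.174 by edgeR and of 0.024 with a minimum of 1 count in 1 library.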
